A study of Mus musculus with 2 samples.

Results

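The placental prolactin (Prl), pregnancy-specific glycoprotein (Psg) and carcinoembryonic antigen-related cell adhesion molecule (Ceacam) genes were followed in RNA sequencing of mouse embryonic fibroblasts, which are connective tissue cells grown in culture from embryos. Members were taken by name from the authors' deposited table, as Prl, Psg or Ceacam followed by a digit, which gave 54 of its 23365 genes: 26 Prl, 13 Psg and 15 Ceacam. The pituitary hormone gene Prl itself carries no digit and is not a member. The comparison was between wild-type cells and cells with TET1 and TET2 knocked out, and each genotype had 1 library. TET1 and TET2 are enzymes that oxidize 5-methylcytosine in DNA, and the series asks how they bear on developmental genes. The sources used here do not give how the knock-out was made, the strain or the age of the embryos.

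The table sets condition B against condition A, and the labels do not tie either name to a genotype. Every ratio is given as B over A and is not assigned to wild-type or knock-out cells. For the targeted genes, the authors' deposited table gives Tet1 a log2 ratio of -1.82 (adjusted p = 0.851) and Tet2 one of -0.74 (adjusted p = 1), which does not settle the assignment. No difference has a replicate check, since each genotype had 1 library, and the authors' p-values, from DESeq, compare 2 libraries and not the genotypes. A level is the authors' mean normalized count, in which size factors scale the reads of each gene before averaging over both conditions. The 2 columns that give a level for each condition were not used, because their names match the labels of neither library. No counting interval is therefore given for a ratio. All 10 fibroblast markers examined, among them Col1a1, Col1a2, Vim and Fn1, reached a mean of 50 or more.

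In mice, the prolactin-related genes arose by repeated duplication and lie together on chromosome 13. They encode secreted hormones and cytokines made mostly by trophoblast cells of the placenta and by the decidua, such as the placental lactogens, which act through the prolactin receptor, and proliferin, which promotes blood vessel growth. Psg genes encode secreted glycoproteins of the trophoblast, and Ceacam genes encode related immunoglobulin-domain proteins, several of them cell-surface adhesion molecules. Both of the latter families lie on chromosome 7. Fibroblasts are not a usual source of placental hormones, although proliferin was first found in cultured mouse fibroblasts stimulated to grow.

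The promoters of 3 prolactin genes are shown because the study concerns DNA methylation, whose substrate is the CpG site. Prl3a1 and Prl8a9 are 2 of the 3 members with a mean normalized count of 50 or more, Prl2c2 is named only, and Prl3d2 is the highest member under that mean. Each run is the 250 bases before the annotated start, 5′ to 3′ on the gene's strand, from RefSeq on GRCm38.p6, a later build than the mm9 named in the submitters' processing notes. Capitals mark CpG sites, the TATA box letters TATAAA and the AP-1 letters TGANTCA, searched on both strands.
Prl3a1 (chr13:27259239-27259488, plus strand): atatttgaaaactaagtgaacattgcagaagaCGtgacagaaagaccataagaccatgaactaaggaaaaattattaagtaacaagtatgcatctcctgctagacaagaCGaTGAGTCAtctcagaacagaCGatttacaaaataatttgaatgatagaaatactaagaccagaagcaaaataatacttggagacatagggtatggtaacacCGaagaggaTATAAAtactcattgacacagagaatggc
Prl8a9 (chr13:27564607-27564856, minus strand): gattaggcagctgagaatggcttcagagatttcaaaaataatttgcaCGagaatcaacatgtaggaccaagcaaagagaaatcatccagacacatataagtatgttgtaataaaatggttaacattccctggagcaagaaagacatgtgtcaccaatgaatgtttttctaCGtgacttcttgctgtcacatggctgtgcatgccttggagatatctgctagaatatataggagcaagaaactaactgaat
Prl3d2 (chr13:27121445-27121694, plus strand): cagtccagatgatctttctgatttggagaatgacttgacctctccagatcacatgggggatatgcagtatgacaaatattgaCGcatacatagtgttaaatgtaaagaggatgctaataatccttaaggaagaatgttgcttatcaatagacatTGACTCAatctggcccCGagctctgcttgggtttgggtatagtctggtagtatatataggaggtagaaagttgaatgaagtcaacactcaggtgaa

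Prl3a1 held 4 CpG sites in this window, a TATA box that begins 29 bases before the start and an AP-1 match that begins 138 bases before it. Prl8a9 held 2 CpG sites and neither of the 2 exact letter runs. Prl3d2 held 2 CpG sites and an AP-1 match that begins 96 bases before its start. A match is a run of letters and does not show that a factor binds there.

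The prolactin genes with reads were higher in condition B, though most rested on few reads. Of the 26 Prl genes, 19 were above 0 in the authors' deposited table, and all 19 had a ratio above 1, while 7 were at 0 in both conditions. Of the 19, 16 had a mean under 50, and among all 4938 genes above 0 and under that mean 62.2% were also higher in condition B. That share counts any ratio above 1, however small. It includes genes with equal reads in both libraries, which lie at 0.15 on the log2 scale after scaling by size factors. The Psg genes were almost silent, with 1 of 13 above 0. Of the 15 Ceacam genes, 4 were above 0. In all, 74.2% of the table's genes were above 0, beside 73.1% of Prl, 7.69% of Psg and 26.7% of Ceacam genes. Prl genes made up 98.4% of the summed mean normalized count of the 54 members.

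Genes with a mean of 50 or more were judged by a fold criterion, met where the log2 ratio was 1 or higher or -1 or lower. The members that reached this mean, 3 in number, were Prl3a1, Prl2c2 and Prl8a9, and all 3 met the criterion toward condition B. Because the mean covers both conditions, a gene can reach it through 1 condition alone. Over all 12401 genes at that mean, 8.31% met the criterion toward condition B and 9.60% toward condition A. The authors' adjusted p was under 0.1, a cut-off set here, for 2 members, Prl3a1 and Prl2c2. Over the 17339 genes with a p-value, 1.42% passed that cut-off toward condition B and 0.871% toward condition A. No member met the fold criterion toward condition A or passed the cut-off in that direction. By unadjusted p under 0.05, the authors' deposited table also gives 2. The members closest to the minimum mean were Prl8a9 above it, at 67.8, and Prl3d2 below it, at 25.6.

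**Figure D1:**
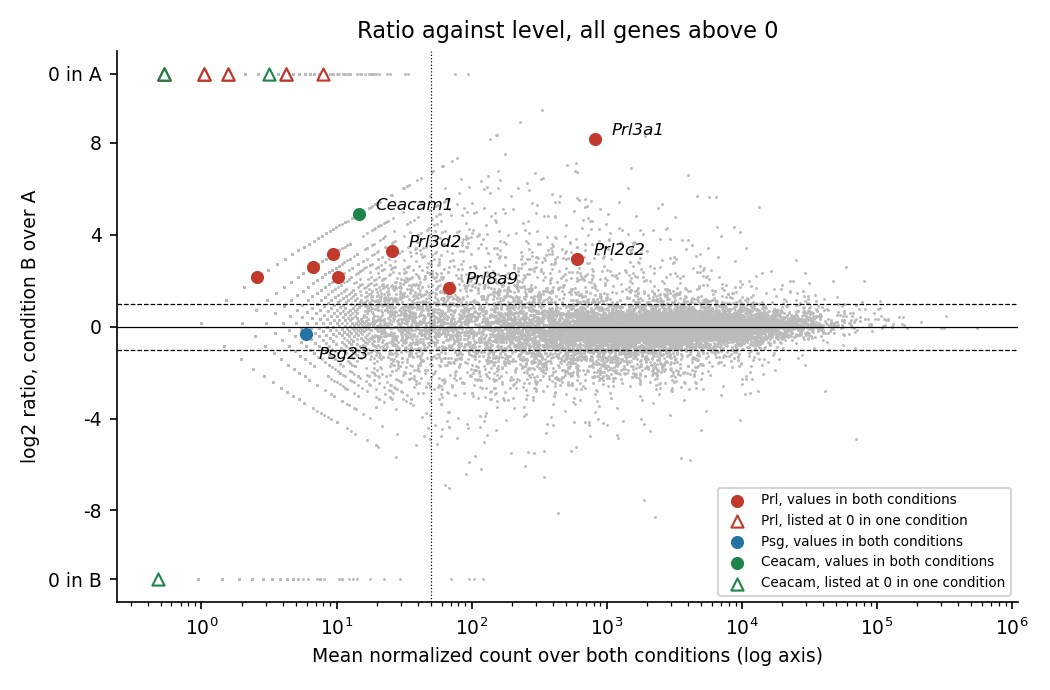
Each point is a gene above 0 in the authors' deposited table, with its mean normalized count over both conditions (log axis) and its log2 ratio of condition B over condition A; open triangles at the edges are members listed at 0 in 1 condition, the dotted line is the mean of 50 and the dashed lines are log2 ratios of 1 and -1. Prl3a1 stands far above genes of its level, at a log2 ratio of 8.17, and all filled Prl points lie above 1.

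Prl3a1, which encodes a prolactin-like protein of the placenta, had the highest level of all members. The authors' deposited table gives it a mean normalized count of 825 and a level 289-fold higher in condition B, which is 8.17 on the log2 scale (adjusted p = 5.51e-11). Its adjusted p ranked 6 among 17339 genes, and its ratio ranked 6 among the 12395 genes at the minimum mean with values in both conditions. Of 835 genes within 1.2-fold of its mean, Prl3a1 alone had a ratio that high. In that window the central 90% of log2 ratios ran from -1.79 to 1.74. A ratio of this size rests on few reads in condition A.

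The 5 genes with the log2 ratio closest to that of Prl3a1, over the 2 libraries, were Cyp4a12b, Serpina3h, Gbp1, Lce1g and Serpinb6c. In the authors' deposited table their log2 ratios ran from 7.53 to 8.35. None belongs to the prolactin family. The likeness is of 1 ratio each and is no correlation across samples.

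Prl2c2 encodes proliferin, a growth factor-like hormone whose RNA is known from growing mouse fibroblasts. In the authors' deposited table its mean was 601 and its level 7.67-fold higher in condition B, or 2.94 on the log2 scale (adjusted p = 0.0327). Of 704 genes within 1.2-fold of its mean, 24 had a ratio at least as high, itself included. Per kilobase of its longest GENCODE transcript, the mean normalized count was 713 for Prl2c2 and 614 for Prl3a1, so the order of these levels per length is the reverse of the order by count.

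Other proliferin copies were at or near 0. Prl2c3 and Prl2c4 are listed at 0 in both conditions, and the authors' deposited table gives Prl2c5 a mean of 2.58 and a log2 ratio of 2.15 (adjusted p = 1). The reading frame of Prl2c2 encodes a protein 98.7% identical to that of Prl2c3 and 87.1% identical to that of Prl2c5, and RefSeq gives Prl2c4 as another name of Prl2c3. The sources used here do not say how reads shared by such copies were counted, so the split of proliferin reads among Prl2c2, Prl2c3 and Prl2c4 is uncertain.

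Prl8a9 encodes a placental protein of the prolactin-like C group. By the authors' deposited table its mean was 67.8 and its level 3.20-fold higher in condition B, or 1.68 on the log2 scale. This did not pass, with an adjusted p of 1 and an unadjusted p of 0.336. Of 332 genes within 1.2-fold of its mean, 55 had a ratio at least as high, so a ratio of this size was frequent at that level. Its nearest relative by protein, Prl8a6 at 67.2% identity, had a mean of 4.22.

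The placental lactogen I genes, whose hormones act on the prolactin receptor in mid-pregnancy, were low. Prl3d2 had a mean of 25.6 and a ratio of 9.78 in the authors' deposited table. Prl3d1 had a mean of 10.3 and a ratio of 4.44 there. Both leaned to condition B without passing, with an adjusted p of 1 each. Prl3d3 is listed at 0 in condition A, with a mean of 7.91 and an adjusted p of 1 in the authors' deposited table. The proteins of Prl3d1 and Prl3d2 are 97.8% identical and those of Prl3d2 and Prl3d3 98.2%, so reads may have been divided among them. Prl3b1, placental lactogen II, had a mean of 0.527.

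That value is what 1 read is worth. Among the 1090 genes listed at 0 in condition A, every mean is a whole multiple of 0.527 (tolerance 0.001 of a step), and among the 592 listed at 0 in condition B, of 0.474. A member at 0 in condition A with a mean of 0.527 therefore rests on 1 read in condition B. The 11 Prl genes listed at 0 in condition A had between 1 and 15 reads in condition B, with means from 0.527 to 7.91 in the authors' deposited table. Of these 11 genes, 3 had more than 3 reads: Prl3d3 with 15, and Prl8a6 and Prl8a8 with 8 each. The other 8 had 1 to 3 reads: Prl2b1 and Prl7a2 with 3, Prl2a1, Prl7b1 and Prl8a2 with 2, and Prl2c1, Prl3b1 and Prl8a1 with 1. A count of 0 allows up to 3 reads, so those 8 genes cannot be told from equal levels in both conditions.

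The remaining low Prl genes had values in both conditions. Prl6a1, which encodes prolactin-like protein B, had a mean of 9.38 in the authors' deposited table, and its log2 ratio was 3.15. Prl7a1, for prolactin-like protein E, had a mean of 6.75 and a log2 ratio of 2.61 there. Neither passed, each with an adjusted p of 1. All 16 Prl genes above 0 and under the minimum mean were higher in condition B. Low genes in general leaned that way when any ratio above 1 was counted, as given above, and 22.0% of those 4938 genes were listed at 0 in condition A. The lowest unadjusted p that the authors' deposited table gives for these 16 was 0.307. The other 5 Prl genes at 0 in both conditions, beside Prl2c3 and Prl2c4, were Prl3c1, Prl4a1, Prl5a1, Prl7c1 and Prl7d1. For a gene at 0 in both conditions, 3 reads would give a mean of 1.58 in condition B or 1.42 in condition A. A count of 0 does not tell levels under these from 0.

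**Figure D2:**
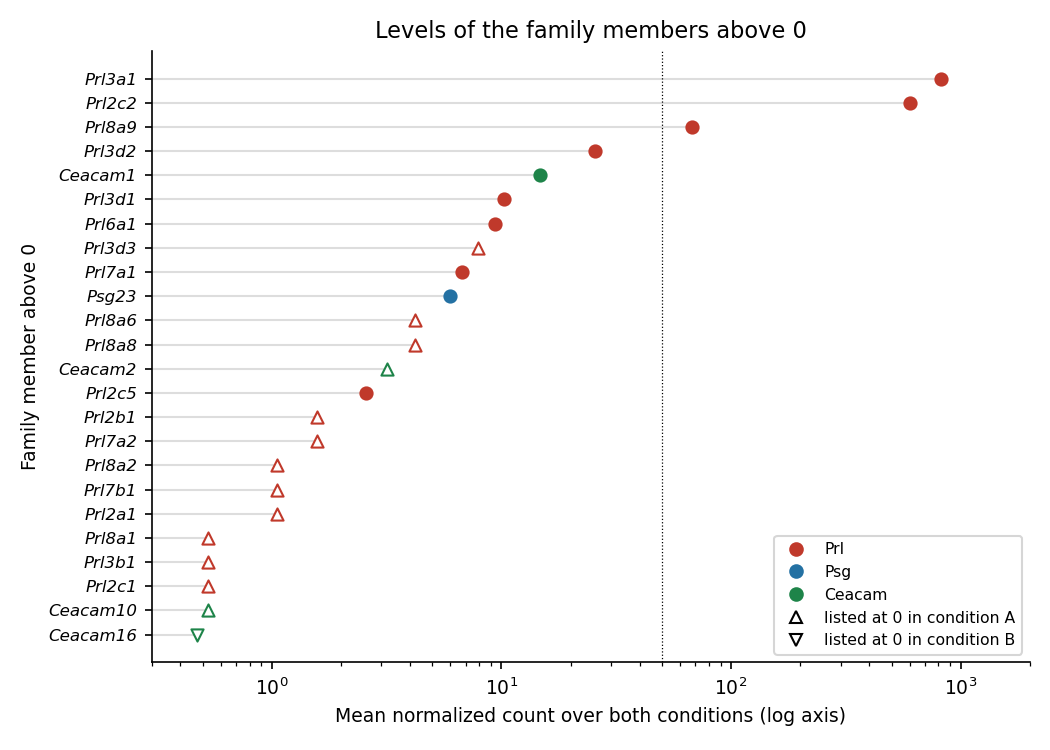
Each row is 1 of the 24 members above 0, placed by its mean normalized count over both conditions in the authors' deposited table (log axis); filled points have values in both conditions and open triangles are listed at 0 in 1 condition. Prl3a1, Prl2c2 and Prl8a9 lie right of the dotted line at 50, and 93.5% of the summed level of all members belongs to these 3 genes.

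The prolactin genes fall in 2 groups on chromosome 13. The larger runs from Prl3d1 to Prl5a1 and holds 22 members with no other gene of the table between them. The smaller holds Prl2c3, Prl2c2 and Prl2c5. Prl3a1 and Prl8a9 belong to the larger group and Prl2c2 to the smaller one, so the members that met the fold criterion came from both. In the larger group 17 genes had a ratio, each above 1. Of its silent members, Prl3c1 lay between Prl3d3 and Prl3b1. The others, Prl7d1, Prl7c1, Prl4a1 and Prl5a1, lay toward the Prl5a1 end, with Prl2a1 and Prl2c1 among them.

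Genes beside the larger group were compared by level, since 15 of its 17 members with a ratio had a mean under 50. Of the 20 nearest non-members above 0 and under that mean, 10 on each side, 15 were higher in condition B and 5 lower. By this count of any ratio above 1, low neighbours also leaned to condition B. The choice of non-members did not exclude the pituitary gene Prl, which had a mean of 11.4 and a log2 ratio of 2.81. Of the 20 nearest non-members at the minimum mean, 10 on each side, 2 met the fold criterion toward condition B and 3 toward condition A, and 0 passed the authors' cut-off. Their median log2 ratio was -0.02, beside -0.04 over all genes at the minimum mean. The closest on one side was Mrs2, a mitochondrial magnesium channel gene, with a mean of 1114 in the authors' deposited table and a ratio that was 0 to 2 decimals on the log2 scale. The transcription factor gene Sox4, on the other side, had a mean of 10409 and a log2 ratio of -0.04. Between Sox4 and the cluster lay 2610307P16Rik, at 1.61 with a mean of 98.0 and an adjusted p of 1. Beside the proliferin group, 1 of 20 genes met the fold criterion toward condition B and 2 toward condition A, with a median of -0.19, and 0 passed. The one toward condition B was Chrm3, a muscarinic acetylcholine receptor gene, to which the authors' deposited table gives a mean of 90.8 and a log2 ratio of 4.52 (adjusted p = 0.265).

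**Figure D3:**
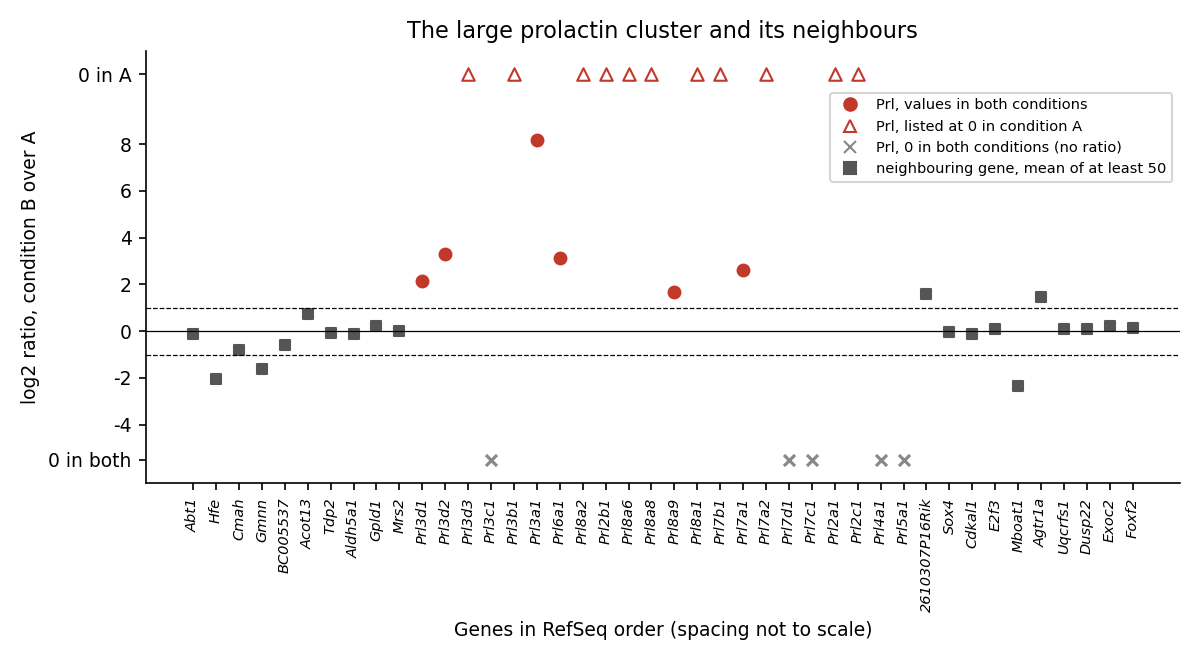
Genes of the larger prolactin group and the 10 nearest genes at the minimum mean on each side are drawn in RefSeq order without distances, with the log2 ratio of condition B over condition A from the authors' deposited table; open triangles are listed at 0 in condition A and crosses at 0 in both. The 17 prolactin genes with a ratio lie above the upper dashed line at 1, and 15 of them have a mean under 50. Of the 20 neighbours drawn, all at the minimum mean, 15 lie between the dashed lines. Neighbours above 0 and under that mean are not drawn, and 15 of the nearest 20 were higher in condition B.

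The Psg genes gave almost no reads. Psg23 was the one member above 0, for which the authors' deposited table gives a mean of 5.96 and a log2 ratio of -0.33 (adjusted p = 1). The other 12, Psg16 to Psg22 and Psg25 to Psg29, are listed at 0 in both conditions. The protein of Psg23 is 94.7% identical to that of Psg21. No reads were thus listed in either library for 12 of these 13 trophoblast glycoprotein genes.

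Ceacam1, a cell adhesion receptor of epithelial, endothelial and immune cells and the receptor of mouse hepatitis virus, led its family. Its mean was 14.7 in the authors' deposited table, and its log2 ratio was 4.91. It did not pass, with an adjusted p of 1 and an unadjusted p of 0.350. Ceacam2, whose protein is 82.3% identical, is listed at 0 in condition A with 6 reads in condition B. Ceacam10 had 1 read in condition B and Ceacam16, a protein of the inner ear, 1 read in condition A. The other 11 Ceacam genes, Ceacam3, Ceacam5, Ceacam9, Ceacam11 to Ceacam15 and Ceacam18 to Ceacam20, are listed at 0 in both conditions. The family members on chromosome 7 fell in 4 groups. For each group the nearest genes at the minimum mean outside its ends were taken, 10 on each side. Other genes between members, at any mean, were left out. These numbered 18 from Ceacam15 to Psg17, 2 from Ceacam16 to Ceacam20 and 25 from Ceacam10 to Ceacam2. The 20 around Ceacam10, Ceacam1 and Ceacam2 had a median log2 ratio of -0.19. Passing toward condition A in the authors' deposited table were 2 of these 20, Cadm4 at -2.81 and Kcnn4 at -3.81. Around Ceacam16 to Ceacam20, 1 of 20 passed, again Kcnn4. Around Ceacam18, 3 of 20 passed, all toward condition B: Siglecg, Klk14 and Klk8. Around the 21 members from Ceacam15 to Psg17, 0 of 20 passed.

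Markers of other cells that make these proteins were examined. Of 29 placental trophoblast genes in the table, 9 are listed at 0 in both conditions, beside 6026 of all 23365 genes. The 9 include the trophoblast stem cell factors Cdx2 and Elf5 and the spongiotrophoblast markers Tpbpa and Tpbpb. They also include the placental cathepsins Ctsj, Ctsm, Ctsr, Cts7 and Cts8. At the minimum mean were 7 genes of the list, of which 3 met the fold criterion toward condition B and 4 toward condition A, with a median of -1.33. Passing in the authors' deposited table were 2 imprinted genes, the growth factor gene Igf2, 7.60-fold higher in condition B (adjusted p = 0.00240), and Peg10, 7.97-fold lower (adjusted p = 0.00104). Eomes, a T-box factor of trophoblast stem cells, did not pass, at a mean of 63.4, and the authors' deposited table puts it at 4.18 on the log2 scale. Gata3, a trophoblast factor also used elsewhere, had a mean of 546, lay at 1.57 on the log2 scale and did not pass. Gata2, Tead4 and Krt18, which are also expressed outside the placenta, did not pass: the authors' deposited table gives means of 2957, 795 and 111, with -1.33, -1.58 and -2.29 on the log2 scale. The list thus held genes at 0 and genes with reads, with ratios in both directions.

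Among the other marker lists, 5 of 10 fibroblast genes met the fold criterion toward condition B and passed, with a median log2 ratio of 1.49: Dcn at 5.66, Lum at 3.29, Thy1 at 2.88, Postn at 2.60 and Pdgfra at 2.54 in the authors' deposited table. Of 3 epithelial genes at the minimum mean, 2 met the criterion toward condition A. One was the keratin gene Krt7, which passed, and the other was Krt18, given above. The third gene, Krt19, had a mean of 1146 and a log2 ratio of -0.02. For Krt7 the authors' deposited table gives a level 186-fold lower in condition B, or -7.54 on the log2 scale (adjusted p = 6.35e-13). All 3 endothelial genes at that mean met it toward condition B, and so did 2 of 3 haematopoietic genes. Those 2 were Lyz2 at 3.84 and Csf1r at 1.05 on the log2 scale, with means of 94.7 and 64.1, and neither passed. Cd68, the third, lay at 0.18, while Ptprc and Itgam had means of 3.53 and 2. For the 5 endothelial genes the authors' deposited table gives log2 ratios of 6.06 for Emcn, 2.78 for Kdr, 1.21 for Tek, 2.06 for Pecam1 and -0.36 for Cdh5, the last 2 with means of 9.80 and 8.43. Emcn passed and the other 4 did not. The part of other cells in the values of the members was not tested, and in bulk RNA fewer cells of a type and less RNA per cell cannot be told apart.

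Receptor and signalling genes of these hormones were mostly under the fold criterion. Of 12 genes of prolactin receptor signalling and pituitary relatives, 9 were at the minimum mean, 1 met the fold criterion toward condition B and 0 toward condition A, and 0 passed. The one was Socs2, a feedback inhibitor of cytokine receptors, which the authors' deposited table puts at 1.03 on the log2 scale (adjusted p = 1). Prlr, the prolactin receptor, had a mean of 40.1 and a log2 ratio of 1.69, and the pituitary hormone gene Prl had a mean of 11.4 and a log2 ratio of 2.81, with an adjusted p of 1 for both. The kinase gene Jak2 and its target Stat5b had ratios near 1, which the authors' deposited table gives as 0.27 and 0.04 on the log2 scale. Further from 0 but short of the fold criterion were Stat5a at -0.67, Socs1 at -0.81, Socs3 at 0.71 and Ghr at 0.72. Of 11 reported binding partners and effectors, 10 were at the minimum mean and 1 met the fold criterion. That gene, Havcr2, an immune receptor reported to bind Ceacam1, passed toward condition B, and the authors' deposited table gives it a mean of 186 and an adjusted p of 0.0692. Igf2r, reported to bind proliferin, had a mean of 57111 and a log2 ratio of 0.68, and Cd9, reported to bind Psg17, had 10626 and -0.56 in the authors' deposited table.

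The promoters of all 3 families were poor in CpG sites. RefSeq promoters were matched for 44 of the 54 members, 50 windows in all, since some genes have several starts. Each of the 50 held 5 CpG sites or fewer in the 250 bases before the start, with a median of 2. Over all 32851 promoters the median was 6, and 49.6% held 5 or fewer. Among the promoters of genes at the minimum mean the median was 16, and 15.2% held 5 or fewer. The CpG counts of Prl3a1 (4) and Prl8a9 (2) lay inside the range of the Psg and Ceacam promoters, which ran from 0 to 4. Low CpG density was thus shared by members with and without reads.

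**Figure D4:**
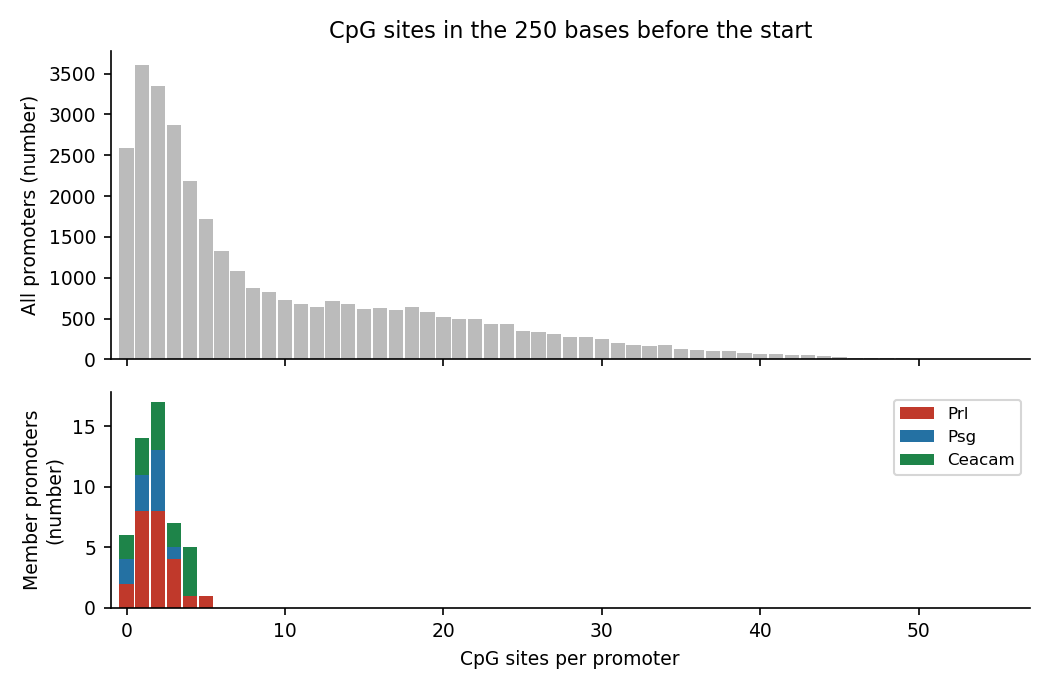
The upper panel counts all 32851 RefSeq promoters, and the lower panel the 50 promoters of the family members, by the number of CpG sites in the 250 bases before the start. All member promoters lie at 5 sites or fewer, where 49.6% of all promoters lie.

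Motif matches differed among the families and are given as a description. AP-1 letters (TGANTCA) were found in 7 of 24 Prl promoters (29.2%), 4 of 11 Psg (36.4%) and 1 of 15 Ceacam promoters (6.67%), beside 6.75% of all promoters and 9.63% of those with 5 or fewer CpG sites. The letters AGATAA, read by GATA factors, were in 11 Prl promoters (45.8%), 1 Psg (9.09%) and 6 Ceacam promoters (40.0%), beside 9.99% of all promoters and 14.9% of those with few CpG sites. The exact TATA box letters TATAAA were in 4 Prl (16.7%), 0 Psg and 5 Ceacam promoters (33.3%), beside 19.2% of those with few CpG sites. Other forms of a TATA box were not searched. Genes with several starts, such as Prl6a1, count once per start. CCACCC was in 1 Prl promoter (4.17%), 1 Psg (9.09%) and 6 Ceacam promoters (40.0%), beside 22.7% of those with few CpG sites. All 4 motifs were searched on both strands. The median GC content was 38.8% in Prl, 48.4% in Psg and 48.8% in Ceacam promoters. It was 52.4% over all promoters and 45.6% over those with few CpG sites. The part of base composition in the motif matches was not tested. Duplicated genes share promoter sequence, so the windows are not independent. The prolactin genes with AP-1 letters were Prl2c3, Prl3a1, Prl3d1, Prl3d2, Prl3d3, Prl7a1 and Prl7a2. Of these, Prl2c3 is listed at 0 and Prl7a2 rests on 3 reads. Prl genes without the letters also had reads, among them Prl8a9 and Prl6a1. No promoter was matched for Prl2c2.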

How the data were processed

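RNA was sequenced from 2 libraries of mouse embryonic fibroblasts, 1 per genotype; per the labels' protocols, total RNA was extracted with TRIzol, DNase-treated and prepared with the TruSeq RNA v2 kit, an unstranded protocol. TopHat2 2.0, DESeq and mm9 are named in the submitters' processing notes, without the counter or annotation. Per the file headers the deposited table holds a mean signal (gene counts divided by size factors, over both conditions), the fold (ratio) of B over A and its logarithm. The deposited log values equal log2 of the fold with no pseudocount. Raw p-values adjusted by the Benjamini-Hochberg method over 17339 genes gave back the authors' adjusted p-values. The 2 columns of values per condition match no label and were not used, so the depth of each library and counting intervals were not analysed here.

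Counts by the fold criterion, ranks and medians were computed in Python 3.11.15 with pandas 2.3.3 and numpy 2.4.6, after a check of the criterion on simulated data. Protein identity was taken from the longest open reading frame of GENCODE M21 transcripts by global alignment (Biopython 1.88), for 53 of 54 members. Gene order and promoters came from RefSeq (GRCm38.p6). Groups of members were divided where starts lay over 1 Mb apart. Members, lists and motifs were chosen with earlier results of these data known. The 1.2-fold level window and the neighbours under the minimum mean were chosen after the data were seen. Named were members with a mean of at least 50 or an adjusted p under 0.1, lower members by value or range, and list genes mostly by size of ratio; further list genes were chosen after their values were seen.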

Additional observations from a re-analysis of the deposited data

How the results depend on the processing

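The number of members that met the fold criterion toward condition B, 3, rose to 6 with a minimum mean of 10 and to 22 with no minimum, where most ratios rest on a few reads. It was 2 with a minimum mean of 200, with a minimum log2 ratio of 2, or without the members at least 95% identical to another (Prl2c2, Prl2c3, Prl3d1, Prl3d2 and Prl3d3), and 3 with a 1.5-fold rule and after centring on the median or on the trimmed mean of all ratios. Toward condition A the count was 0 throughout, apart from 1, Ceacam16 with 1 read, with no minimum mean. The count past the authors' adjusted p stayed 2 at a cut-off of 0.05 and was 1 without the near-identical members, because Prl2c2 is left out by construction. The median log2 ratio of the 3 members at the minimum mean, 2.94, was 5.56 with a minimum mean of 200, 4.93 without the near-identical members, 3.11 with a minimum mean of 10 and 2.98 with either centring, and has no finite value with no minimum. The centre that was subtracted was, to 2 decimals, -0.04 on the log2 scale for both centrings, so all ratios rose slightly. No paired analysis was possible because each genotype has 1 library, and for the same reason no library could be left out. Depth limits the low members: of the 13 listed at 0 in condition A, 12 had 8 reads or fewer in condition B.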
